A study of Mus musculus with 18 samples.

Results

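The glucose transporters of the proximal tubule were followed through primary culture as 10 genes, found by gene name in the tables of estimated counts and of TPM (a length-corrected level, scaled to the same sum in every library). All 10 were present among the 55421 genes of the tables, and all 10 were among the 18754 genes that passed the filter on low counts. Slc5a2, Slc5a1, Slc5a10, Slc5a8 and Slc5a12 belong to the sodium-coupled SLC5 family. The other members belong to the facilitative SLC2 family, Slc2a2, Slc2a5, Slc2a9, Slc2a1 and Slc2a3. The 18 libraries hold polyA RNA of wild-type cells at days 0, 1, 2, 4, 7 and 14, with replicates A, B and C on each day. Day 0 is the isolated tubule, and days 1 to 14 are primary cells grown from it on plastic without subculture. All groups share their source, collagenase-released, Percoll-enriched tubules of kidneys from untreated 6-week-old female C57BL/6J mice. Replicates are named biological in the labels, with no word on whether each is its own mouse or dish. The p-values below therefore reflect the spread of these libraries alone, and part of that spread may be technical.

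The proximal tubule reclaims filtered glucose by secondary active transport. SGLT2 (Slc5a2) in the early segments and SGLT1 (Slc5a1) in the late segment carry glucose with sodium across the brush border, driven by the basolateral sodium pump, and GLUT2 (Slc2a2) lets it leave to the blood. GLUT1 (Slc2a1) and GLUT3 (Slc2a3) carry glucose down its gradient and are known as uptake carriers of proliferating and glycolytic cells.

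The 2 directions of change were seen on every culture day. All 10 genes were called against day 0 (adjusted p under 0.05) on each of days 1, 2, 4, 7 and 14: the same 8 were lower and the same 2, Slc2a1 and Slc2a3, were higher. Most genes of the tables moved too: 70.2%, 74.2%, 74.9%, 69.8% and 69.5% of all tested genes were called on days 1, 2, 4, 7 and 14 against day 0, with 37.1%, 35.3%, 36.8%, 32.1% and 32.1% called lower and 33.1%, 38.9%, 38.1%, 37.6% and 37.4% called higher. The median log2 fold change of the 10 transporters was -2.67 on day 1 and -6.94 on day 14, against -0.01 and 0.15 for all tested genes. A test of any difference among the 6 days called 10 of 10 members, beside 89.8% of all tested genes. The comparisons with day 0 share its 3 libraries, so they are not independent of each other.

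**Figure D1:**
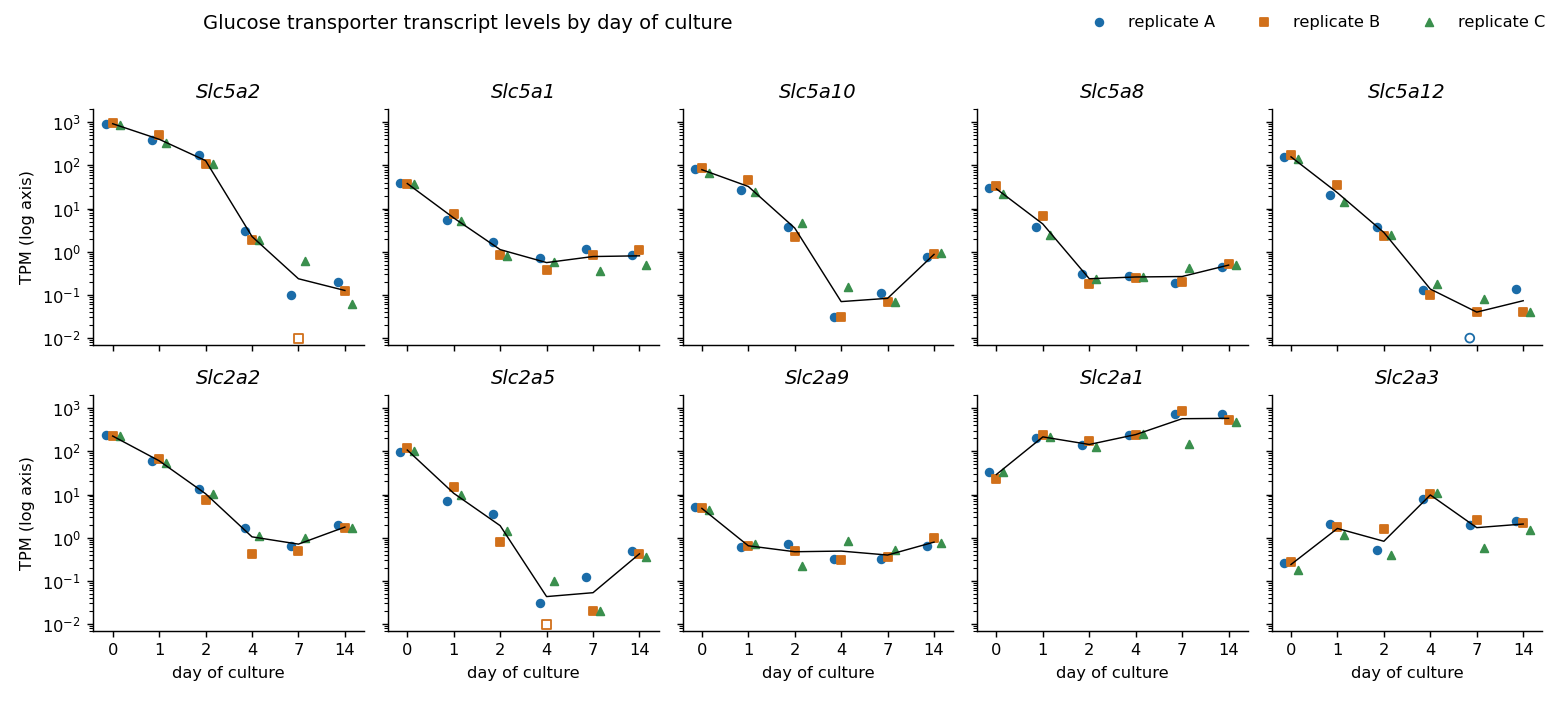
TPM of each transporter (log axis) in each library by day of culture; symbols are replicates A, B and C, the line joins the day means, and open symbols at the lower edge are libraries listed at 0. The 5 sodium-coupled genes and Slc2a2, Slc2a5 and Slc2a9 lie below day 0 on every later day, while Slc2a1 and Slc2a3 lie above day 0 on every later day.

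Library totals ran from 23799559 to 37579097 estimated counts. Day 7 replicate C stood apart from the other day 7 libraries: its log2 CPM correlated at 0.975 with the day 4 libraries and at 0.948 with those of day 14, whereas replicates A and B had 0.952 and 0.953 with day 4 and 0.981 and 0.982 with day 14. For the transporters, most values that rest on it are given with and without it. Proximal markers were abundant on day 0 and scarce later: the S1 and S2 list without its transporter member summed to 25.8 to 39.5 TPM on day 14, against 8909 to 10025 TPM on day 0. All 6 of its genes were called lower on each culture day. Markers of other nephron segments were also present on day 0, with summed levels of 1608 to 1983 TPM for the Henle loop, 670 to 872 TPM for the distal tubule and 701 to 1032 TPM for the collecting duct. Mitochondrially encoded genes took 0.439% to 0.498% of the counts on day 4, against 3.93% to 5.73% on day 0. In bulk RNA, fewer cells of a type and less RNA per cell cannot be told apart.

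The promoter windows of 7 of the 10 genes were found in RefSeq (GRCm38.p6; none for Slc5a2, Slc5a12 and Slc2a3). They are shown for a gene that rose and for a gene that fell, both of which held a hypoxia core, 5′ to 3′ on the gene's strand, as 250 bases before and 50 after the start site. Capitals mark matches, on either strand, to the hypoxia response core (ACGTG or GCGTG). The HNF4 word CAAAGTCCA was also searched on both strands and was not found in either window.
Slc2a1, chr4:119108495-119108794, plus strand: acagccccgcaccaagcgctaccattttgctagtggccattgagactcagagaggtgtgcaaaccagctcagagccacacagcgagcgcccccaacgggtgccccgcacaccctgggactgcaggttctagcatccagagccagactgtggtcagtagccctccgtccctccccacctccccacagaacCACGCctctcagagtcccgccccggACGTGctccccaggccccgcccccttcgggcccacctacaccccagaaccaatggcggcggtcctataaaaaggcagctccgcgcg
Slc5a1, chr5:33103969-33104268, plus strand: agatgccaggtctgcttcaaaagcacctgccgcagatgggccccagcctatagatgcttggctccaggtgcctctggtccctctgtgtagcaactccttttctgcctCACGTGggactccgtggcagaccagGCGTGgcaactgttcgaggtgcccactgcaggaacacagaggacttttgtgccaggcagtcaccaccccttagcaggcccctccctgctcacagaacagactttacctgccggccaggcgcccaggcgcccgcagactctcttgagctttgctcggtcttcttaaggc
The Slc2a1 window holds 2 hypoxia cores, 1 on each strand, whose first bases lie at -61 and -36 from the start. The Slc5a1 window holds 3, of which the ACGTG words of both strands at -143 and -142 overlap as the palindrome CACGTG, and the third is at -118. Slc5a8 held 1 hypoxia core, and Slc2a2, Slc2a5, Slc2a9 and both annotated starts of Slc5a10 held neither the hypoxia core nor the HNF4 word. Of 32851 promoter windows of the same length, 43.8% held a hypoxia core and 0.475% the HNF4 word, so a hypoxia core is common and was found here in genes of both directions.

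Among the sodium-coupled carriers, SGLT2 was the most abundant transporter on day 0 and among the scarcest on day 14. Slc5a2 (ENSMUSG00000030781, GRCm38 chr7:128265657-128272430, plus strand) had 906, 968 and 879 TPM on day 0, 384, 496 and 322 on day 1, and 171, 107 and 108 on day 2. Day 4 libraries had 3.05, 1.82 and 1.87 TPM, day 7 libraries 0.10, 0 and 0.61, and day 14 libraries 0.20, 0.12 and 0.06. No library of a culture day reached the range of day 0, and the libraries of neighbouring days overlapped only between days 14 and 7. The day 1 level was 43.7% of that of day 0 and the day 2 level 14.0%. Day 4 held 0.245% of it and day 14 held 0.0138%. On the count scale, the log2 fold change against day 0 was -1.49 ± 0.28 on day 1 (adjusted p = 0.000186), -9.19 ± 0.40 on day 4 (1.28e-11) and -13.49 ± 0.51 on day 14 (3.31e-12; SE throughout). Only 10 estimated reads remained over the 3 day 7 libraries, 9 of them in replicate C, and 8 over those of day 14, so the last folds rest on few reads. Every step to day 7 was called lower: -1.85 on day 2 against day 1 (adjusted p = 0.00013), -5.84 on day 4 against day 2 (1.98e-08) and -4.08 on day 7 against day 4 (4.04e-05; -5.17 and 3.52e-06 without day 7 replicate C). The gene BC017158 overlaps it by 1052 bases on the other strand. No source used here states whether counting used strand, so reads of that stretch cannot be told apart. BC017158 had a mean of 28.3 TPM on day 14 and 25.2 on day 0.

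SGLT1 started lower and levelled off instead. Slc5a1 (ENSMUSG00000011034, chr5:33104219-33162870) had 38.1, 37.7 and 37.8 TPM on day 0 and 5.53, 7.59 and 5.03 on day 1. From day 2 to day 14 all 12 libraries lay between 0.35 and 1.70 TPM. The day 1 libraries sat below all of day 0 and above all later ones. The log2 fold change was -2.99 ± 0.34 on day 1 (adjusted p = 1.1e-06) and -6.33 ± 0.41 on day 14 (1.17e-09). After day 2 the only called step was day 4 against day 2, at -1.03 ± 0.39 (adjusted p = 0.045), and it was lost in several alternatives, for example without day 2 replicate A (-0.50, adjusted p = 0.35).

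The balance between SGLT2 and SGLT1 changed over the culture. The ratio of Slc5a2 to Slc5a1 in TPM averaged 24.2 on day 0, 66.3 on day 1 and 120 on day 2. It then averaged 4.08 on day 4, 0.610 on day 7 and 0.157 on day 14. Day 7 replicate C, at 1.74, was the only library of days 7 and 14 with more SGLT2 than SGLT1; replicates A and B of day 7 had 0.0870 and 0. These ratios describe single libraries and were not tested.

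Slc5a10 (SGLT5, a mannose and fructose carrier of the tubule; ENSMUSG00000042371, chr11:61672781-61720826, minus strand) was lost and then partly returned. It had 82.2, 88.3 and 67.3 TPM on day 0, 26.3, 46.4 and 24.5 on day 1, and 3.76, 2.18 and 4.66 on day 2. It had 0.03, 0.03 and 0.15 TPM on day 4, 0.11, 0.07 and 0.07 on day 7, and 0.77, 0.88 and 0.95 on day 14. All day 14 libraries lay above all of days 4 and 7, yet at 1.09% of the day 0 level. The rise on day 14 was 2.61 ± 0.50 log2 units over day 7 (adjusted p = 0.00401) and 2.73 ± 0.51 over day 4 (adjusted p = 0.000337); without day 7 replicate C the first was 2.55 (adjusted p = 0.0243). It rests on 85 estimated reads on day 14, against 8 on day 7 and 7 on day 4. The gene overlaps Fam83g by 25861 bases on the other strand, and Fam83g averaged 14.1 TPM on day 14, 14.4 on day 7 and 18.3 on day 4.

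The monocarboxylate members of the family were also lower from day 1 on. Slc5a12 (SMCT2, a lactate carrier; ENSMUSG00000041644, chr2:110597298-110647779) had 158, 175 and 137 TPM on day 0, 20.7, 34.7 and 14.1 on day 1, and 3.67, 2.31 and 2.39 on day 2. Its 9 libraries of days 4, 7 and 14 held 0 to 0.18 TPM. Slc5a8 (SMCT1, a higher-affinity carrier of lactate and short-chain fatty acids; ENSMUSG00000020062, chr10:88885992-88929515) had 29.7, 33.7 and 21.9 TPM on day 0 and 3.83, 6.89 and 2.40 on day 1. From day 2 on its 12 libraries lay between 0.18 and 0.53 TPM. On day 1 the log2 fold change was -3.15 ± 0.33 for Slc5a12 (adjusted p = 4.47e-07) and -3.04 ± 0.32 for Slc5a8 (3.88e-07), and on day 14 the fitted values were -11.62 ± 0.55 (3.13e-11) and -6.61 ± 0.39 (3.27e-10). The day 14 value of Slc5a12 rests on 7 reads.

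The facilitative carriers that serve the tubule's own transport fell with the sodium-coupled ones. Slc2a2 (GLUT2; ENSMUSG00000027690, chr3:28697903-28731359) had 233, 222 and 222 TPM on day 0, 60.7, 67.6 and 52.6 on day 1, and 13.3, 7.46 and 10.5 on day 2. It had 1.64, 0.42 and 1.08 TPM on day 4, 0.65, 0.50 and 0.98 on day 7, and 1.98, 1.65 and 1.66 on day 14. Each day from 0 to 2 lay wholly above the next, days 4 and 7 overlapped, and the day 14 libraries lay above all of day 4 and day 7. The log2 fold change was -2.34 ± 0.22 on day 1 (adjusted p = 1.24e-07), -8.52 ± 0.31 on day 4 (2.49e-12) and -7.88 ± 0.30 on day 14 (3.24e-12). The late rise was called over day 7 (1.28 ± 0.31, adjusted p = 0.0141; 1.35 and 0.0321 without day 7 replicate C) but not over day 4 (0.64 ± 0.29, adjusted p = 0.0749), and it left GLUT2 at 0.782% of its day 0 level.

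Slc2a5 (GLUT5, a fructose carrier; ENSMUSG00000028976, chr4:150119283-150144169) had 95.98, 121 and 104 TPM on day 0 and 7.22, 15.2 and 9.61 on day 1. On days 4 and 7 its 6 libraries held 0 to 0.12 TPM, and on day 14 they held 0.49, 0.43 and 0.35 TPM, above all 6. It was lower on day 1 by -3.50 ± 0.34 log2 units (adjusted p = 1.86e-07). The day 14 rise over day 4 was called at 2.05 ± 0.71 (adjusted p = 0.0231), from 37 reads against 4, but not without day 4 replicate B (1.79, adjusted p = 0.0793) nor without day 7 replicate C (2.05, adjusted p = 0.0634). Against day 7 it was 1.91 ± 0.70 (adjusted p = 0.0895).

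Slc2a9 (GLUT9, a urate carrier; ENSMUSG00000005107, chr5:38349273-38503143, minus strand) had the lowest day 0 level of the 8 genes that fell, and kept 16.6% of it on day 14. All 15 culture libraries lay between 0.22 and 0.97 TPM, below the 5.02, 4.86 and 4.44 TPM of day 0. The log2 fold change was -3.05 ± 0.26 on day 1 (adjusted p = 3.14e-08) and -3.58 ± 0.26 on day 14 (4.78e-09). Day 14 was called higher than day 4 (0.81 ± 0.26, adjusted p = 0.0172) although the TPM of the 2 days overlapped, and that call was lost without day 4 replicate B (0.71, adjusted p = 0.0724), without day 14 replicate B (0.74, adjusted p = 0.0601) and without day 14 replicate C (0.78, adjusted p = 0.0513).

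The uptake carriers took the opposite course. Slc2a1 (GLUT1; ENSMUSG00000028645, chr4:119108711-119137983) had 32.5, 22.4 and 32.6 TPM on day 0, 204, 233 and 210 on day 1, and 137, 169 and 126 on day 2. It had 239, 236 and 257 TPM on day 4, 713, 846 and 147 on day 7, and 713, 541 and 486 on day 14. Every culture library exceeded every day 0 library, by day 1 already. Within day 7, replicates A and B were as high as any library of the series, while replicate C was below all of day 4. The log2 fold change against day 0 was 2.54 ± 0.42 on day 1 (adjusted p = 5.4e-05), 2.43 ± 0.42 on day 4 (6.57e-05) and 3.50 ± 0.44 on day 14 (2.55e-06). These folds are of TMM-scaled counts, 11.3-fold in CPM on day 14, whereas on the TPM scale day 14 held 1989% of the day 0 level. Day 7 was called higher than day 4 at 1.16 ± 0.40 (adjusted p = 0.0321), and at 1.62 ± 0.16 (adjusted p = 5.54e-07) without day 7 replicate C. The call was lost when any 1 library of day 4, or day 7 replicate A or B, was left out (0.76 to 1.19, adjusted p = 0.0733 to 0.181). Other steps also turned on day 7 replicate C: without it, day 2 was lower than day 1 (-0.81, adjusted p = 0.000293; 0.129 with it), day 4 was higher than day 2 (0.71, adjusted p = 0.000744; 0.171 with it), and day 14 was lower than day 7 (-0.56, adjusted p = 0.0284; -0.09 and 0.926 with it). Day 14 was called higher than day 4 by 1.06 ± 0.40 (adjusted p = 0.0353), and not when any 1 library of day 4 was left out, nor without day 14 replicate A or B (0.85 to 1.09, adjusted p = 0.0656 to 0.126). All days share the same estimate of the spread, so day 7 replicate C also widens the SE of this step. Without that library the SE of day 7 against day 4 was 0.16, against 0.40 with it.

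Slc2a3 (GLUT3; ENSMUSG00000003153, chr6:122727809-122801640, minus strand) stayed far below GLUT1 and peaked on day 4. It had 0.26, 0.28 and 0.18 TPM on day 0, 2.03, 1.74 and 1.14 on day 1, and 0.52, 1.56 and 0.40 on day 2. It had 8.05, 10.5 and 10.7 TPM on day 4, 2.00, 2.54 and 0.59 on day 7, and 2.48, 2.20 and 1.54 on day 14. The day 4 libraries stood above all 15 others. Day 4 was higher than day 2 by 3.68 ± 0.47 log2 units (adjusted p = 1.67e-05), and day 7 was lower than day 4, at -2.58 ± 0.44 (adjusted p = 0.000403; -2.19 and 8.62e-05 without day 7 replicate C). Against day 0 the log2 fold change was 5.25 ± 0.53 on day 4 (adjusted p = 1.7e-07) and 2.86 ± 0.50 on day 14 (9.55e-05). The weakest call was that of day 2 over day 0 (1.57 ± 0.51, adjusted p = 0.0111), lost without day 2 replicate B (1.08, adjusted p = 0.073). A processed pseudogene, Gm4482, lies within the gene over 742 bases on the same strand and took 782 estimated reads over the 18 libraries, against 3516 for Slc2a3, so the division of reads between them is uncertain; it averaged 3.44 TPM on day 14, 2.76 on day 4 and 5.90 on day 0.

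**Figure D2:**
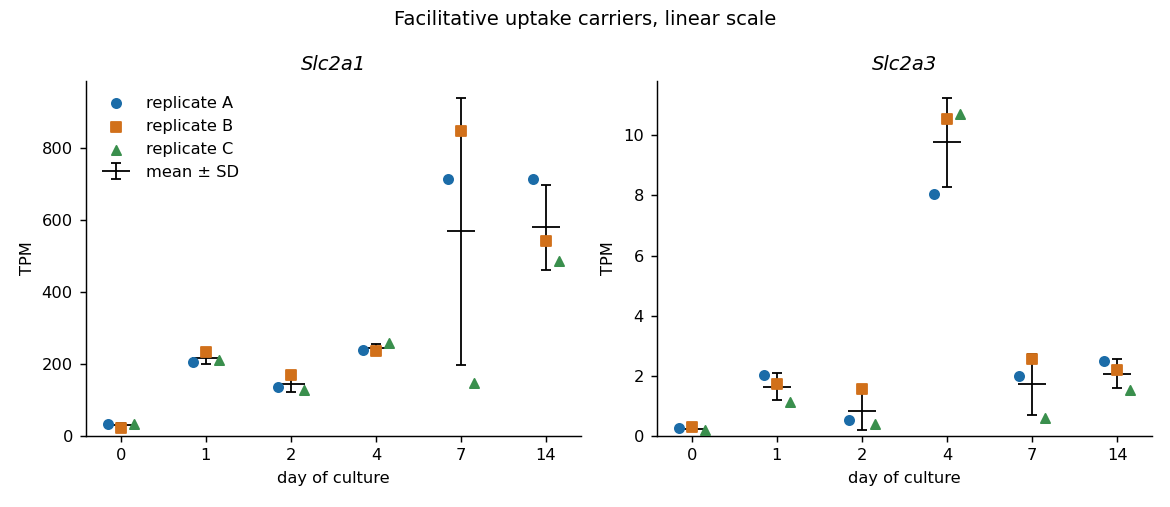
TPM of Slc2a1 and Slc2a3 on a linear axis by day of culture, with each library as a symbol and mean ± SD (n = 3) as a bar. Day 7 replicate C, at 147 TPM of Slc2a1, lies apart from replicates A and B at 713 and 846, and Slc2a3 is highest on day 4, at 8.05 to 10.7 TPM.

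The order of the genes by TPM was exchanged within 4 days. On day 0 it ran Slc5a2, Slc2a2, Slc5a12, Slc2a5, Slc5a10, Slc5a1, Slc2a1, Slc5a8, Slc2a9 and Slc2a3, and the only neighbours whose libraries overlapped were Slc2a1 and Slc5a8. On day 1 Slc5a2 still led with a mean of 401 TPM, followed by Slc2a1 at 216 TPM without overlap. On day 2 the pair overlapped, at 128 TPM for Slc5a2 and 144 TPM for Slc2a1. From day 4 on Slc2a1 led every library, and Slc2a3 was next by its mean, overlapping with the gene after it on days 7 and 14. Summed over the 10 genes, TPM was 1587 ± 83.4 at day 0, 294 ± 40.4 at day 2, 259 ± 12.5 at day 4 and 587 ± 119 at day 14 (mean ± SD of 3 libraries). The sodium-coupled genes made up 76.9%, 61.3%, 45.9%, 1.27%, 0.453% and 0.409% of that sum on days 0, 1, 2, 4, 7 and 14. Slc2a1 and Slc2a3 together made up 1.87%, 29.2%, 49.7%, 98.1%, 99.1% and 99.1% on the same days, nearly all of it Slc2a1. In day 7 replicate C, where the sum was 150 TPM, against 718 and 850 TPM in replicates A and B, the uptake genes still made up 98.0%.

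**Figure D3:**
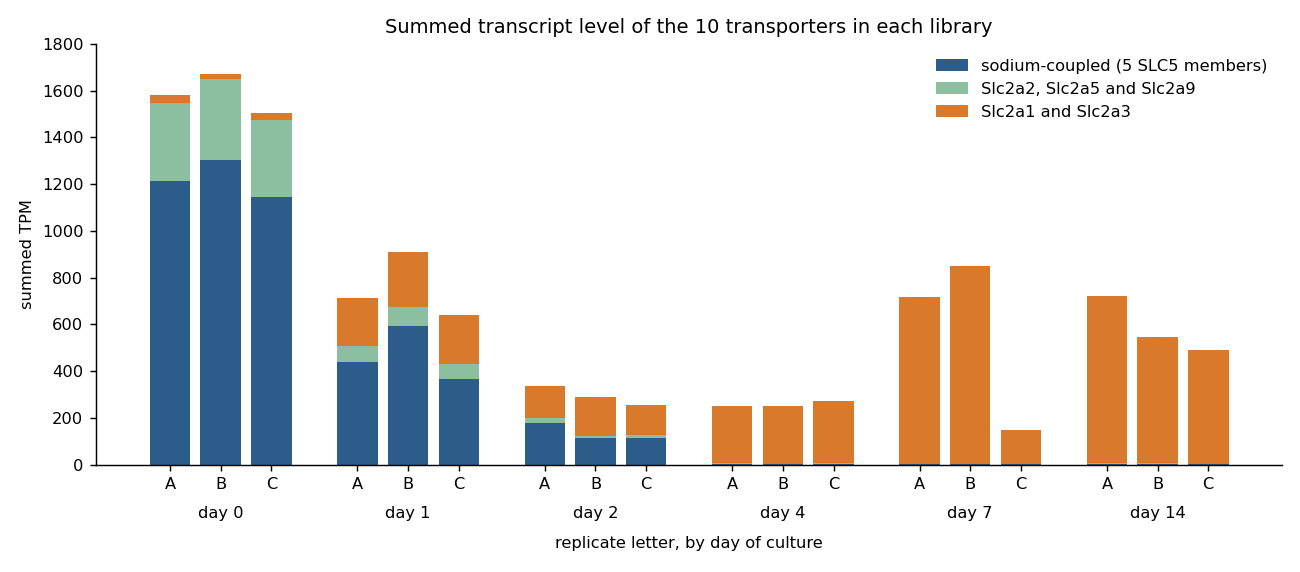
Summed TPM of the sodium-coupled members, of Slc2a2, Slc2a5 and Slc2a9, and of Slc2a1 and Slc2a3 in each library, stacked, by day of culture. The sum is largest on day 0, at 1506 to 1673 TPM, and consists almost wholly of Slc2a1 and Slc2a3 from day 4 on.

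Between consecutive days, most calls of members fell on the early steps. On day 2 against day 1, 8 members were called and all were lower, while 34.5% of tested genes were called (17.0% higher, 17.5% lower). On day 4 against day 2, 7 were called, 6 lower and 1 higher, with 41.4% of tested genes called (19.4% higher, 22.1% lower). On day 7 against day 4, only Slc5a2, Slc2a3 and Slc2a1 were called (37.9% of tested genes; 22.0% higher, 15.9% lower), and on day 14 against day 7, only Slc5a10 and Slc2a2, both higher (12.5%; 5.07% higher, 7.46% lower). The share of members called on day 7 against day 4 was near that of all tested genes. By day 4 Slc5a10, Slc2a5 and Slc5a12 averaged only 0.080, 0.045 and 0.25 CPM, so a further fall could hardly be called. On day 14 against day 4, Slc5a10, Slc2a5, Slc2a9 and Slc2a1 were higher and Slc5a2 and Slc2a3 lower (51.9%; 28.6% higher, 23.3% lower). The count of 6 fell to 3 without day 4 replicate B.

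**Figure D4:**
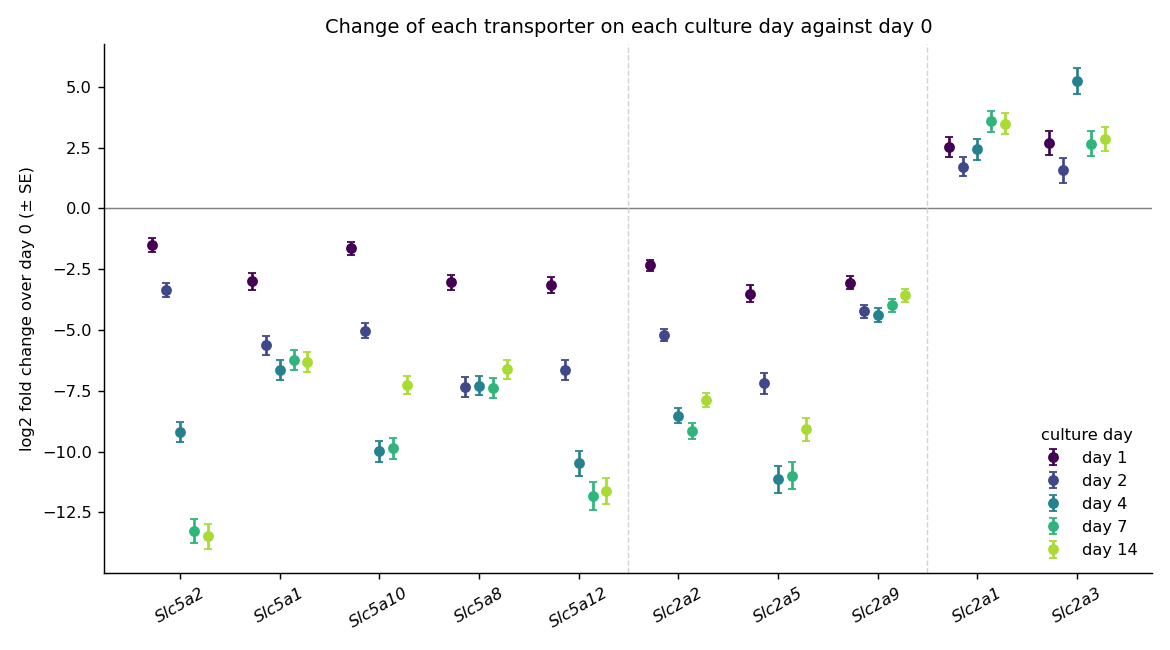
Log2 fold change of each transporter on each culture day over day 0, with SE, from the model of all 18 libraries; dashed lines separate the sodium-coupled genes, the facilitative genes of the tubule and the uptake genes. The first 8 genes lie below 0 on every day and Slc2a1 and Slc2a3 above it.

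Genes that followed the transporters most closely were sought among those with a mean of at least 10 CPM, by Pearson's r of log2 CPM over the 18 libraries, which share the culture time course. For Slc5a2 they were Miox, Spp2, Gsta2, Ces2c and Acsm2, with r between 0.989 and 0.995. For Slc2a1 they were Mospd2, P2ry2, Xab2, Bag2 and Irf2bpl (0.956 to 0.968), and for Slc2a3 Exoc8, Acer3, Slk, Cpne1 and Agpat2 (0.869 to 0.919). Miox, which encodes the inositol oxygenase of the proximal tubule, averaged 0.277 TPM on day 14 and 6110 TPM on day 0. Among the members themselves, Slc2a2 and Slc2a5 were the closest pair (r = 0.989), and Slc2a1 and Slc2a3 had r = 0.664.

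Other carriers of both families moved both ways. Of 7 tested other SLC5 genes, 4 were lower and 2 higher on day 1, and 3 lower and 2 higher on day 14; of 6 tested other SLC2 genes, 4 were lower and 1 higher on both days. The median log2 fold changes on day 14 were -0.48 and -2.29, with 0.15 for all tested genes. For these and the lists below, 33.1% of all tested genes were higher and 37.1% lower on day 1. On day 14 the shares were 37.4% higher and 32.1% lower. Slc5a9 (SGLT4) averaged 0.817 TPM on day 14 and 18.4 on day 0 (-5.56 ± 0.36, adjusted p = 1.06e-09), and Slc5a11 (SMIT2, an inositol carrier) 0.0667 and 70.4 TPM (-9.85 ± 0.51, adjusted p = 5.08e-10). Slc2a4 (GLUT4, the insulin-regulated carrier of muscle and fat) averaged 0.673 and 27.5 TPM on the same days (-6.47 ± 0.37, adjusted p = 2.51e-10), and Slc2a12 0.403 and 7.41 TPM (-4.91 ± 0.37, adjusted p = 6.88e-09). Slc2a8 averaged 3.50 TPM on day 4, 16.8 on day 14 and 23.9 on day 0, and was lower than day 0 on both culture days (-3.54 ± 0.32 and -1.34 ± 0.29, adjusted p = 4.58e-08 and 0.000622). Of the genes that rose, the one named by rule was Slc5a5, the sodium-iodide symporter, with 618 estimated reads on day 14 against 2 on day 0, a 344-fold ratio per library total with an exact 95% interval, for counting error only, of 94.95 to 2850. On the TMM scale of the other folds the ratio of mean CPM was 243.

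Partners and regulators of tubular glucose transport fell on most days. Of 8 tested, 7 were lower on day 1 and 7 on day 14, and none was higher on either (medians -2.38 and -3.28). Pdzk1, a scaffold of brush-border transporters, averaged 2.45 TPM on day 14 and 993 on day 0 (-9.44 ± 0.48, adjusted p = 6.29e-11). Dab2, an endocytic adaptor of the tubule, averaged 61.7 and 386 TPM (-3.34 ± 0.15, adjusted p = 1.98e-11). Hnf4a, a transcription factor of the proximal tubule that was chosen here after its values were seen, averaged 0.453 and 140 TPM (-9.0 ± 0.70, adjusted p = 9.17e-09). Pdzk1ip1, which encodes the MAP17 subunit that SGLT2 needs for activity and was likewise chosen after its values were seen, had 1291, 1342 and 1386 TPM on day 14, against 1956, 1759 and 1782 on day 0 (-1.26 ± 0.39, adjusted p = 0.00911). On day 7 it had 2346, 2538 and 500 TPM, the low value again in replicate C, and was not called against day 0 (-0.71, adjusted p = 0.11). Day 7 replicates A and B lay above every day 0 library in TPM, but the fold is of scaled counts. In scaled counts the means were 652 CPM on day 7 and 1068 CPM on day 0, while in TPM day 7 held 97.9% of day 0. The fold without replicate C is not given here.

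Regulators of GLUT1 and GLUT3 moved both ways. Of 9 tested, 3 were higher and 3 lower on day 1, and 5 were higher and 2 lower on day 14 (medians 0.08 and 0.52). The day 1 counts lay near the shares of all tested genes, 33.1% higher and 37.1% lower. Myc, a transcription factor that is known to activate Slc2a1, averaged 256 TPM on day 1 and 203 on day 14, and 5.81 on day 0 (5.11 ± 0.18 and 4.29 ± 0.17; adjusted p = 2.56e-12 and 6.73e-12). Akt1, a kinase of insulin signalling, averaged 255 TPM on day 14 and 46.7 on day 0 (1.63 ± 0.10, adjusted p = 4.05e-10), and Gipc1, a scaffold that binds GLUT1, 188 and 45.6 TPM (1.22 ± 0.08, adjusted p = 7.57e-10). Txnip, which promotes removal of GLUT1 from the cell surface and was chosen here after its values were seen, fell to 47.0 TPM on day 14, against 155 on day 0 (-2.54 ± 0.27, adjusted p = 3.28e-07).

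Enzymes that phosphorylate sugar or release it moved both ways. Of 10 tested genes of sugar phosphorylation and release, 3 were higher and 6 lower on day 1, and 3 higher and 5 lower on day 14 (medians -0.77 and -0.34). Galk1, named after its values were seen, was lower on day 14 by scaled counts (-0.61) but stood at 117% of its day 0 TPM. Hk2, a hexokinase of glycolytic cells, had 42.2, 36.3 and 38.5 TPM on day 14, against 0, 0 and 0.02 on day 0. Its day 0 libraries held 2 estimated reads in all, against 5553 on day 1 and 11227 on day 14, ratios per library total of 2976 (exact 95% interval 823 to 24580) and 6257 (1732 to 51670). On the TMM scale the ratios of mean CPM were 2056 on day 1 and 3599 on day 14. Slc37a4, which carries glucose 6-phosphate to the phosphatase that releases glucose, averaged 15.4 TPM on day 14 and 388 on day 0 (-5.62 ± 0.36, adjusted p = 9.82e-10). Khk, which phosphorylates fructose, averaged 17.1 and 330 TPM (-5.97 ± 0.29, adjusted p = 3.75e-11). Of 6 genes of fructose breakdown, Khk among them, 4 were lower and 1 higher on day 1 and on day 14 (medians -1.65 and -5.13), with Tkfc at 14.3 and 142 TPM and Sord, sorbitol dehydrogenase, at 6.88 and 1541 TPM on days 14 and 0.

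Lactate carriers and enzymes split. Of 9 tested, 3 were higher and 5 lower on day 1, and 1 was higher and 5 lower on day 14 (medians -1.29 and -0.62). Among the 5 was Bsg, lower by scaled counts (-0.62) but at 116% of its day 0 TPM, and named here after its values were seen. Slc16a4 averaged 0.833 TPM on day 14 and 119 on day 0 (-7.87 ± 0.40, adjusted p = 6.23e-11), Slc16a7 (MCT2) 8.62 and 87.0 TPM (-4.25 ± 0.40, adjusted p = 8.76e-08), and Ldhd, a D-lactate dehydrogenase, 18.3 and 88.8 TPM (-3.17 ± 0.23, adjusted p = 3.87e-09). The 1 gene still higher on day 14 was Slc16a3 (MCT4, known as a lactate exporter of glycolytic cells, and named after its values were seen), with 43.8, 22.9 and 34.6 TPM on day 14, against 0.53, 0.18 and 0.43 on day 0 (5.51 ± 0.67, adjusted p = 2.03e-06). It was highest on day 1, at 158, 151 and 178 TPM.

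Of 11 urate-handling genes, 8 were lower and 3 higher on day 1, and 9 were lower and 2 higher on day 14 (medians -1.78 and -8.69). Slc22a12 (URAT1) averaged 0.0967 TPM on day 14 and 346 on day 0 (-12.45 ± 0.48, adjusted p = 4.68e-12). The organic anion carriers Slc22a6 and Slc22a8 held 3 and 0 estimated reads on day 14, against 53618 and 109175 on day 0. Of the sodium pump genes, Atp1b1, a beta subunit, averaged 763 TPM on day 14 and 1084 on day 0 (-1.34 ± 0.32, adjusted p = 0.00139). Fxyd2, a regulatory subunit of the pump in kidney, averaged 535 and 5599 TPM (-4.31 ± 0.34, adjusted p = 1.12e-08).

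**Figure D5:**
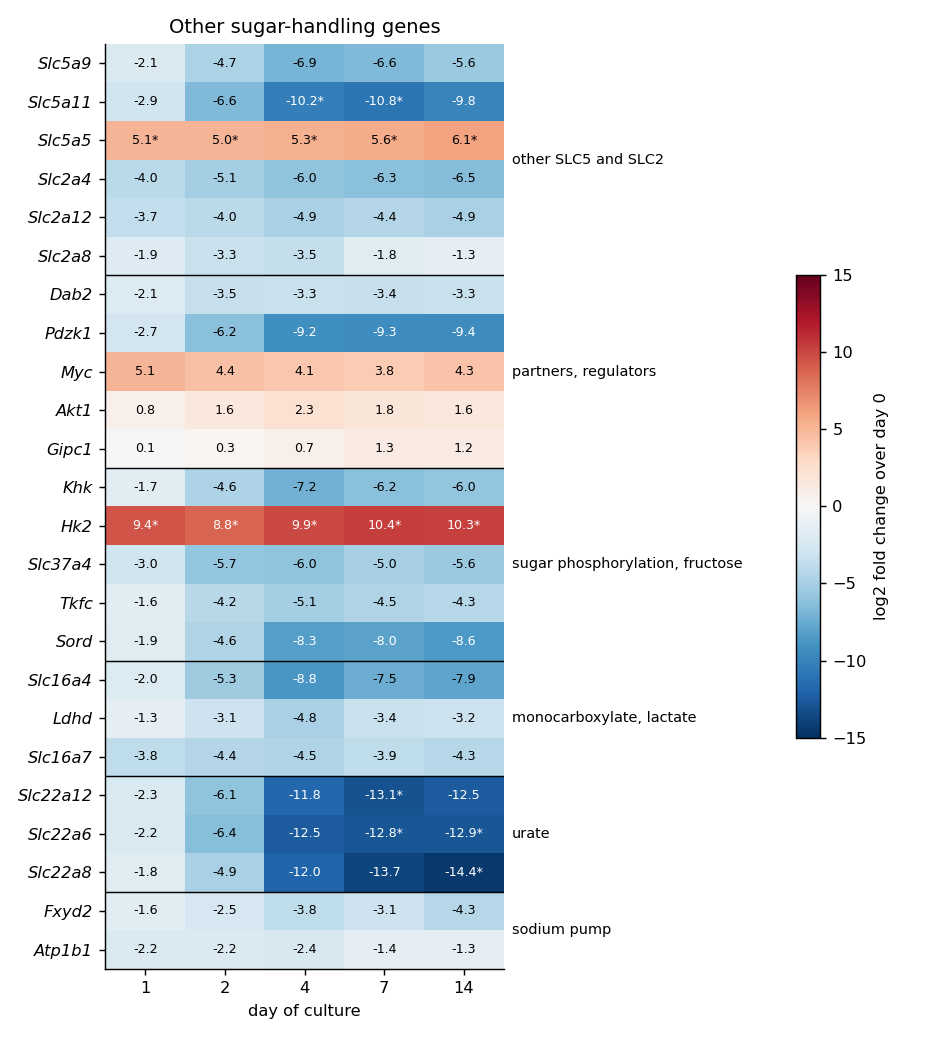
Log2 fold change over day 0 (numbers and colour) of some of the other genes of sugar handling on days 1, 2, 4, 7 and 14, grouped by list. Asterisks mark values where a day held 3 or fewer estimated reads, which depend on the prior count. Most rows shown are negative on all days, and Slc5a5, Myc, Akt1, Gipc1 and Hk2 are positive on all days. Listed genes not shown include some that were higher on all days, such as Slc16a3.

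Markers of other cells moved with the days as well. GLUT1 is known in endothelium and in human red cells, and GLUT3 in myeloid cells. The summed level of 7 red cell genes was at most 0.24 TPM from day 4 on, when GLUT1 was high, against 186 to 312 TPM on day 0. That of 8 endothelial genes was 97.3 to 147 TPM on day 1, when GLUT1 was already higher, against 78.4 to 84.9 on day 0. On day 1, 4 of the 8 were higher by the count test, Cdh5 (2.14 ± 0.38, adjusted p = 0.0001), Pecam1 (1.3 ± 0.41, 0.0104), Flt1 (1.08 ± 0.27, 0.00229) and Egfl7 (0.82 ± 0.16, 0.000259), and 1 was lower. On day 4, 6 of the 8 were lower and none higher. On day 14 the sum was 24.3 to 28.2 TPM and all 8 were lower by the count test, although Egfl7 had 25.2, 25.6 and 21.9 TPM on day 14, above its 17.9, 18.1 and 19.6 TPM on day 0. That of 10 macrophage and myeloid genes was 26.6 to 35.6 TPM on day 4, where GLUT3 peaked, 76.6 to 109 TPM on day 7 and 21.8 to 59.1 TPM on day 0. Against day 0, 2 of the 10 were higher and 6 lower on day 4. On day 7 Cd68 (3.57 ± 0.52, adjusted p = 1.47e-05) and Cd14 (2.40 ± 0.20, 2.29e-08) were higher by the count test. C1qa, C1qb, C1qc and Adgre1 were lower on day 7, and Csf1r, Lyz2, Ptprc and Itgam were not called. That of 8 fibroblast and pericyte genes was 9.41 to 14.1 TPM on day 4, 45.6 to 60.1 TPM on day 14 and 10.9 to 14.8 TPM on day 0. On day 14 Col1a1 (6.32 ± 0.59, adjusted p = 7.87e-08), Col1a2 and Col3a1 were higher by the count test. Dcn, Pdgfra, Pdgfrb and Rgs5 (-6.01 ± 0.51, 2.47e-08) were lower. Lum, at a mean of 0.133 CPM on day 0, was not tested and was at 0 in all libraries of days 4, 7 and 14. Podocyte genes, 5 in all, summed to 49.4 to 64.1 TPM on day 14 and 95.6 to 124 on day 0. On day 14 the lists of the Henle loop, the distal tubule and the collecting duct summed to 27.9 to 37.6, 10.5 to 15.6 and 91.1 to 113 TPM. Within these lists Avpr2, Trpm6, Cldn16, Cldn19, Scnn1g and Kcnj1 stood at 351%, 152%, 61.1%, 59.8%, 49.4% and 10.2% of their day 0 TPM. All other genes of the 3 lists stood at 5.05% or less, for example Umod at 0.189%, Slc12a3 at 0.210% and Aqp2 at 0.167%. Of 5 tested S3 genes other than the transporters, 3 were lower and 2 higher on day 14, and all 6 listed genes summed to 144 to 164 TPM on day 14 and 348 to 384 on day 0. Atp11a and Cyp7b1 stood at 838% and 379% of their day 0 TPM on day 14, with means of 513 and 7.25 CPM. Acy3, Slc22a7 and Slc22a13 stood at 1.49%, 0.312% and 0.169%. The part of these cells in the change of the transporters was not tested.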

How the data were processed

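PolyA RNA was sequenced in 18 libraries, 3 for each of 6 days; groups and replicate letters were taken from the labels. The authors deposited estimated counts per gene (expected counts, whole numbers as deposited) and TPM per gene. RSEM 1.3.3, STAR 2.7.8a, FastQC 0.11.8 and cutadapt 2.3 with GRCm38 are listed, per the submitters' processing notes. Annotation and strand setting: not given in the sources used here. The 5 reporter sequences among the 55426 entries, at 0 in every library, were left out. Counts carry the depth and TPM do not.

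Counts were filtered with filterByExpr, scaled with TMM and tested in edgeR (quasi-likelihood F) with 6 day means fitted together, with Benjamini-Hochberg adjustment over all 18754 genes; 10 comparisons were made. Log2 fold changes used a prior count of 2, and SE is the log2 fold change divided by the square root of its F value. Folds of scaled counts and of TPM differ in size and, for some genes, in direction. Positions are from GENCODE vM21. For days with 1 to 3 counts, ratios are per library total, without TMM, and have exact 95% intervals. The test was checked on simulated counts. No pair of libraries agreed within sampling noise (smallest chi-square over its degrees of freedom 6.81).

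Named genes were all 10 members; from other lists, up to 3 genes with the smallest p for any difference; and the 5 genes most alike to Slc5a2, Slc2a1 and Slc2a3. Genes outside it are so marked, and some genes the rule names and 1 further promoter word that was searched are not reported here. Members and lists were chosen with earlier results of these data known. As alternatives, library sizes alone, DESeq2 size factors, TMM without mitochondrially encoded genes, no filter, a block for replicate letter, fits of only the compared days, the DESeq2 Wald test, limma on log2(TPM + 1) with a mean of at least 0.5 TPM, on log2(TPM + 0.1) and without that filter, a prior count at 0.5, and leaving out every library in turn were tried. For days 1, 2, 4, 7 and 14 over day 0, scaling by library sizes alone shifted the all-gene median, relative to TMM, by 0.30, 0.51, 0.49, 0.49 and 0.56 log2 units, and limma on log2(TPM + 1) by 0.35, 0.55, 0.61, 0.65 and 0.77; changes are given relative to TMM. Software was edgeR 4.0.16, DESeq2 1.42.0 and limma 3.58.1 in R 4.3.3, with figures from matplotlib 3.10.9 in Python 3.11.15.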

Additional observations from a re-analysis of the deposited data

How the results depend on the processing

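All 10 members were called against day 0 under all 29 alternatives on days 1, 4, 7 and 14; on day 2 the count was 9 or 10, the exception being Slc2a3. Of 2894 refitted member fold changes, 2785 kept direction and side of the threshold, 50 lost the call, 25 gained one and 34 turned direction; none of those that turned had been called. Fitted with only the libraries of the days compared, 3609 genes were called on day 7 against day 4 (7107 with all libraries) and 219 on day 14 against day 7 (2349), where leaving out a library gave 1214 to 2895; the smaller fits have fewer samples. By limma on log2(TPM + 1) without the filter, 0 members were called on day 14 against day 7 and 3 on day 14 against day 4, where leaving out a library gave 3 to 7. Library sizes alone changed the split of all genes on day 14 against day 0 to 10373 higher and 4047 lower (7007 and 6026 with TMM). The cause was not tested. The directions that turned with limma were, on log2(TPM + 1), log2(TPM + 0.1) and log2(TPM + 1) without the filter: Slc5a1 on day 14 against day 7, 0.036, 0.11 and 0.036; Slc2a9 on day 4 against day 2, 0.011, 0.027 and 0.011, and on day 7 against day 4, -0.077, -0.16 and -0.077; and Slc2a1 on day 14 against day 7, 0.36, 0.36 and 0.36. Slc5a8 on day 7 against day 4 was 0.0033 with and without the filter. Leaving out a library, day 14 against day 7 ran from -0.83 to 0.86 for Slc5a2, -0.42 to 0.33 for Slc5a1, -0.13 to 0.51 for Slc5a12, -0.56 to 0.30 for Slc2a1 and -0.21 to 0.61 for Slc2a3. Day 7 against day 4 ran from -0.017 to 0.73 for Slc5a1, -0.10 to 0.65 for Slc5a10, -0.46 to 0.088 for Slc5a8 and -0.11 to 0.31 for Slc2a5. Day 4 against day 2 ran from -0.10 to 0.35 for Slc5a8 and -0.36 to 0.40 for Slc2a9. Of 45 same-letter pairs of libraries from different days, 8 had deviations correlated over 0.1 (r from -0.17 to 0.42, median 0.02), as had 8 of 90 different-letter pairs. Not every same-letter pair passed 0.1, so the letters were not taken as pairs, although 12 of 18 libraries correlated best with their own letter, a hint from the data and not from the design. With the letter as a replicate block, Slc2a1 on day 7 against day 4 was 1.05 (adjusted p = 0.0533), Slc2a3 on day 2 against day 1 was called (-1.16, adjusted p = 0.0177), 10 members were called on each day against day 0, and no other member call changed. At this depth, levels of 10 or fewer reads over 3 libraries limit the folds of Slc5a2, Slc5a10, Slc5a12 and Slc2a5 on some of days 4, 7 and 14.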
